A study of Arabidopsis thaliana with 6 samples.

Results

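The type-A response regulators of Arabidopsis thaliana are the 10 genes ARR3 to ARR9 and ARR15 to ARR17, and they were taken by locus identifier from the authors' deposited table of root transcripts that differ between the Col-0 wild type and the hb13 mutant. Of the 10 genes, 6 were listed (ARR4, ARR5, ARR6, ARR7, ARR8 and ARR9), in a table of 708 entries. All 6 had a higher value in the mutant, by 1.52 to 3.26 times. The other 4 (ARR3, ARR15, ARR16 and ARR17) were not listed and have no value here. The table holds genes that the authors called different at a q-value of up to 0.05, and the family was chosen by its fold changes and q-values in this same table, so the levels below are a description with no test of the family.

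Cytokinins are plant hormones that in roots restrain the size of the meristem and shape vascular tissue and lateral root formation. Membrane histidine kinases bind the hormone and pass a phosphate through shuttle proteins (AHPs) to response regulators in the nucleus. Type-B regulators carry a DNA-binding domain and switch on target genes, among them the type-A regulators. Type-A regulators consist of little more than the phosphate-receiving domain and dampen the same pathway, so their transcripts are widely read as a record of cytokinin signalling.

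The series holds 3 wild-type and 3 hb13 libraries of poly(A) RNA, all in the Col-0 ecotype, from seedlings at 5 days on standard medium, with no treatment named. The labels call the tissue whole root and describe a cut about 0.5 cm from the root tip. The hb13 allele is not given in the sources used here, and HB13, a homeodomain-leucine zipper (HD-ZIP) class I transcription factor, is not among the entries, so the genotype could not be checked from its own transcript. The deposited table gives 1 value per genotype and none per library, on a scale that its header does not name. Neither the spread between replicates nor the depth is therefore known for any value below. The authors' q-value is the sole measure of support for a gene's change, and how it used the replicates is not given in the sources used here. Values are compared between genotypes for the same gene and not between genes. In whole tissue, more cells expressing a gene and more RNA per cell cannot be told apart.

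The promoters of the 3 regulators with the largest rise among the 6 listed, and of ARR15, the nearest relative of ARR7 and not listed, show the short sequence that type-B regulators are known to bind. Each line gives the 250 bases before the annotated gene start, in the direction of transcription, from RefSeq assembly TAIR10.1 (the submitters' processing notes name TAIR10). Capitals mark AGATT and AGATC on either strand. The windows are chr3:17760951-17761200, chr5:25254319-25254568, chr1:6579315-6579564 and chr1:28133026-28133275, all on the minus strand.
ARR5: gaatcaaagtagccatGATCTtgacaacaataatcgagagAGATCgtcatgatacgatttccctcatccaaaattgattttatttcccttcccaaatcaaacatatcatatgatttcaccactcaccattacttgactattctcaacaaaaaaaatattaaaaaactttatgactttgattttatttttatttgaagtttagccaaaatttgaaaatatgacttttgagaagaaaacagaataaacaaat
ARR6: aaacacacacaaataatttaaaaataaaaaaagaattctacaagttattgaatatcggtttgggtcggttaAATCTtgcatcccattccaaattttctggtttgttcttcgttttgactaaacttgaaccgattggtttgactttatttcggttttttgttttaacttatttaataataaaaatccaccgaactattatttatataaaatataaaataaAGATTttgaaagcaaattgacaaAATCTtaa
ARR7: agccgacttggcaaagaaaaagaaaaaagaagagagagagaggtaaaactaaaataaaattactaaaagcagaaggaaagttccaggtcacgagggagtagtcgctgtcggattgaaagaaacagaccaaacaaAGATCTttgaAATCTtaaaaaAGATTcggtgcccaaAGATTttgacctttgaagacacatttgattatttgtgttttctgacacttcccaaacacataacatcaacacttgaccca
ARR15: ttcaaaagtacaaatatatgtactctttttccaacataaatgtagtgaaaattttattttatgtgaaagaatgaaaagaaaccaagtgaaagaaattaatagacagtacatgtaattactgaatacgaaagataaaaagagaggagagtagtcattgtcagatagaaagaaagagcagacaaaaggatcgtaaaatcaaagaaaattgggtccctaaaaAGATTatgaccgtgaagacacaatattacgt

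Among the 6 listed members ARR5, ARR6 and ARR7 rose most. ARR5 (AT3G48100), first isolated as a cytokinin-induced transcript and the source of a widely used cytokinin reporter, stood at 13.3 in Col and 43.4 in hb13 per the authors' deposited table. This was 3.26 times the wild-type level, a log2 ratio of 1.71, and the q-value per the authors' deposited table was 0.00246. Its closest relative ARR6 (AT5G62920) went from 16.4 to 52.9 per the authors' deposited table, with a log2 ratio of 1.69 and a q-value of 0.00246. The paired genes thus differed by 0.013 in log2 ratio.

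ARR7 (AT1G19050), which acts with ARR15 in setting up the embryonic root and is repressed by WUSCHEL in the shoot meristem, stood low, at 0.955 in Col and 3.07 in hb13 per the authors' deposited table. Its log2 ratio of 1.68 was close to that of ARR5 and ARR6, and the 3 ratios spanned 0.021. The support for ARR7 was weaker than for ARR5 and ARR6, its q-value being 0.0477 per the authors' deposited table, near the limit of the list. Only 20 of the 708 entries had a larger q-value, so ARR7 lies just inside the list. A value under 1 with no count behind it has an unknown error, and so has the ratio that rests on it.

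ARR4, ARR8 and ARR9 rose less. ARR4 (AT1G10470), a regulator known to bind the red-light receptor phytochrome B, stood at 50.8 in Col and 95.8 in hb13 per the authors' deposited table, 1.89 times the Col level with a log2 ratio of 0.92. ARR8 (AT2G41310, named RR3 in RefSeq) stood at 49.3 in Col and 82.6 in hb13 per the authors' deposited table, 1.68 times higher with a log2 ratio of 0.74. ARR9 (AT3G57040), the closest relative of ARR8, stood at 32.4 in Col and 49.2 in hb13 per the authors' deposited table, 1.52 times higher with a log2 ratio of 0.60. The q-value of all 3 was 0.00246 per the authors' deposited table. A gap of 0.77 in log2 ratio separated the highest of these 3 from the lowest of ARR5, ARR6 and ARR7, although without library values this difference between members could not be tested.

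**Figure D1:**
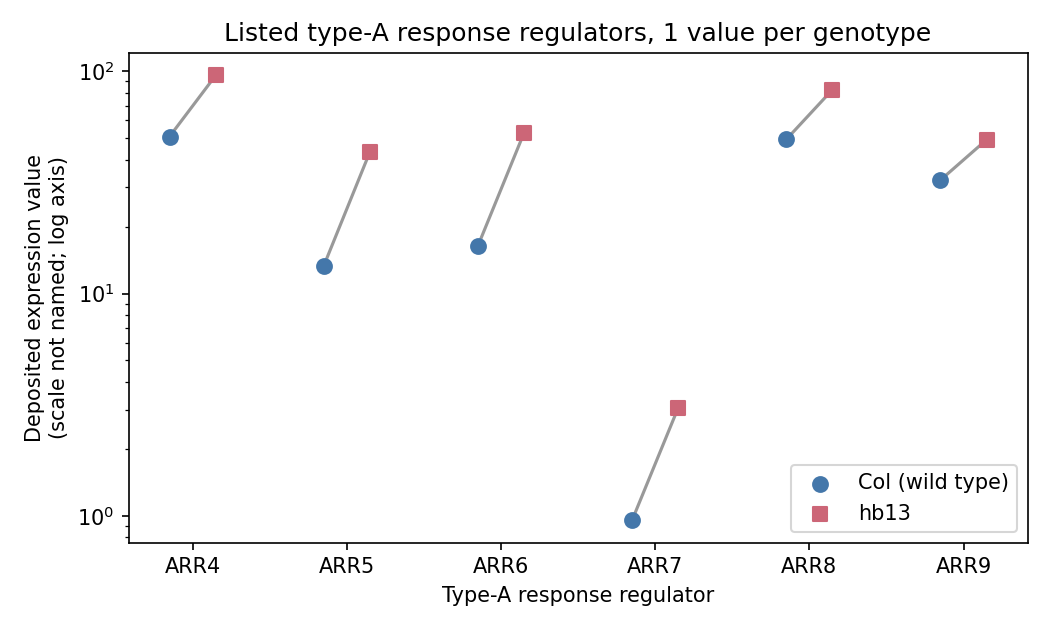
Deposited expression value (vertical log axis, scale not named) of the 6 listed type-A regulators in Col (circles) and hb13 (squares), 1 value per genotype and no error. Every square lies above its circle, and the lines are steepest for ARR5, ARR6 and ARR7, whose values rose 3.26, 3.23 and 3.21 times.

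Against the table as a whole, 6 of 6 listed members were higher in hb13, where 55.6% of all 708 entries were. The list takes in 2.49% of the 27444 annotated nuclear protein-coding genes and, counting those higher in hb13, 1.38%, against 6 of the 10 type-A genes. Not every annotated gene is expressed in roots or was tested by the authors, and the family was noticed because it was listed, so these shares are background and nothing is read from them. The median log2 ratio of the 6 was 1.3, beside 0.68 for the 394 entries that were higher. At a log2 ratio of at least 1 were 3 of the 6 members and 88 of the 394 higher entries (12.4% of all 708). The smallest q-value of the table was shared by 5 of the 6 members and by 48.3% of all entries, so it does not rank them. A q-value under 0.01 was held by 5 of the 6 members and by 238 of the 394 higher entries (33.6% of all 708). The mean of the genotype values reached 5 in 5 of the 6 and in 328 of the 394 higher entries (46.3% of all 708). ARR7 was the member short of either mark. The 6 members are all higher entries, so their like comparison is with the 394 and not with all 708. For the mean value the share among the 394 was nearly that of the members, so nothing is read from it.

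Ordered by log2 ratio from the largest rise, ARR5, ARR6 and ARR7 held ranks 18, 19 and 20 of the 706 entries with a fold change. No other entry lay between them, an adjacency noticed after the values were seen. ARR4 ranked 108, ARR8 166 and ARR9 239. The last of these lay below the median of the entries that were higher.

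**Figure D2:**
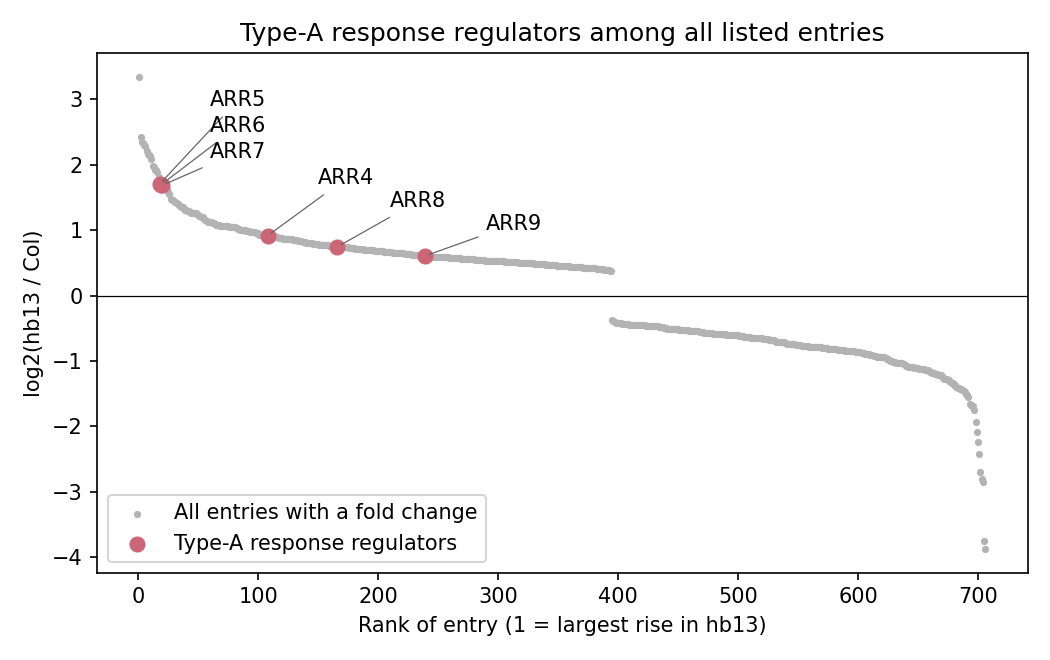
log2(hb13/Col) of all 706 entries with a fold change (grey), ranked from the largest rise, with the 6 type-A regulators in red. ARR5, ARR6 and ARR7 sit together at ranks 18 to 20 and ARR4, ARR8 and ARR9 follow at ranks 108, 166 and 239.

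How the genotypes were scaled against each other is not stated. The median log2 ratio over all 706 entries was 0.45, and when it was subtracted every listed member was still higher in hb13, from 0.15 for ARR9 to 1.26 for ARR5. That median is itself a product of selection, since no listed entry lies between -0.37 and 0.37, so it is no measure of a scaling error.

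The rest of the cytokinin pathway was taken from 9 lists with 62 genes, of which 5 were listed in the table, all 5 of them higher in hb13. Of all annotated nuclear protein-coding genes 2.49% were listed and 1.38% were listed and higher, and 55.6% of the entries were higher. Their log2 ratios ran from 0.50 to 1.23 with a median of 0.83. Of the 3 receptors, 6 phosphotransfer proteins, 6 cytokinin response factors and 2 type-C regulators, 0 were listed, and of 11 type-B regulators 1 was. This makes 1 of 28 genes of the signal chain, a share near the 2.49% of all genes, so nothing is read from it. That gene, ARR10 (AT4G31920), one of the main type-B activators of cytokinin responses in roots, stood at 40.3 in Col and 56.9 in hb13 per the authors' deposited table, with a log2 ratio of 0.50 with a q-value of 0.00462.

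Hormone metabolism and transport gave 1 gene each. CKX5 (AT1G75450), a cytokinin oxidase that breaks the hormone down, stood at 1.90 in Col and 4.47 in hb13 per the authors' deposited table, with a log2 ratio of 1.23, and was 1 of 10 breakdown and conjugation genes. LOG7 (AT5G06300), an enzyme that releases the active free base, stood at 50.8 in Col and 90.4 in hb13 per the authors' deposited table, with a log2 ratio of 0.83, and was 1 of 19 synthesis and activation genes. ABCG14 (AT1G31770), the transporter that loads root cytokinin for export to the shoot, stood at 22.3 in Col and 39.8 in hb13 per the authors' deposited table, also with a log2 ratio of 0.83. It was 1 of 2 transport genes. Each of these genes was higher in hb13, as were 55.6% of all entries, and 2.49% of all annotated nuclear protein-coding genes were listed. With 1 listed gene per list, nothing is read from their direction.

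Among 3 further early cytokinin targets, IAA3 (AT1G04240, also SHY2) was listed. This auxin-response repressor is a known target of the type-B regulator ARR1 at the border of the root meristem. It stood at 4.24 in Col and 9.74 in hb13 per the authors' deposited table, with a log2 ratio of 1.20. Of 6 early auxin response genes, IAA19 (AT3G15540) was listed, at 9.74 in Col and 21.2 in hb13 per the authors' deposited table and with a log2 ratio of 1.12. IAA3 and IAA19 were both higher in hb13, as were 55.6% of all entries, and 2.49% of all annotated nuclear protein-coding genes were listed. With 1 listed gene in each of these lists, nothing is read from their listing or direction. CKX5, LOG7, ABCG14, IAA3 and IAA19 shared the q-value 0.00246 per the authors' deposited table. Of the 5 clock-related pseudo-response regulators 0 were listed, a list too short to set against the 2.49% of all genes.

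**Figure D3:**
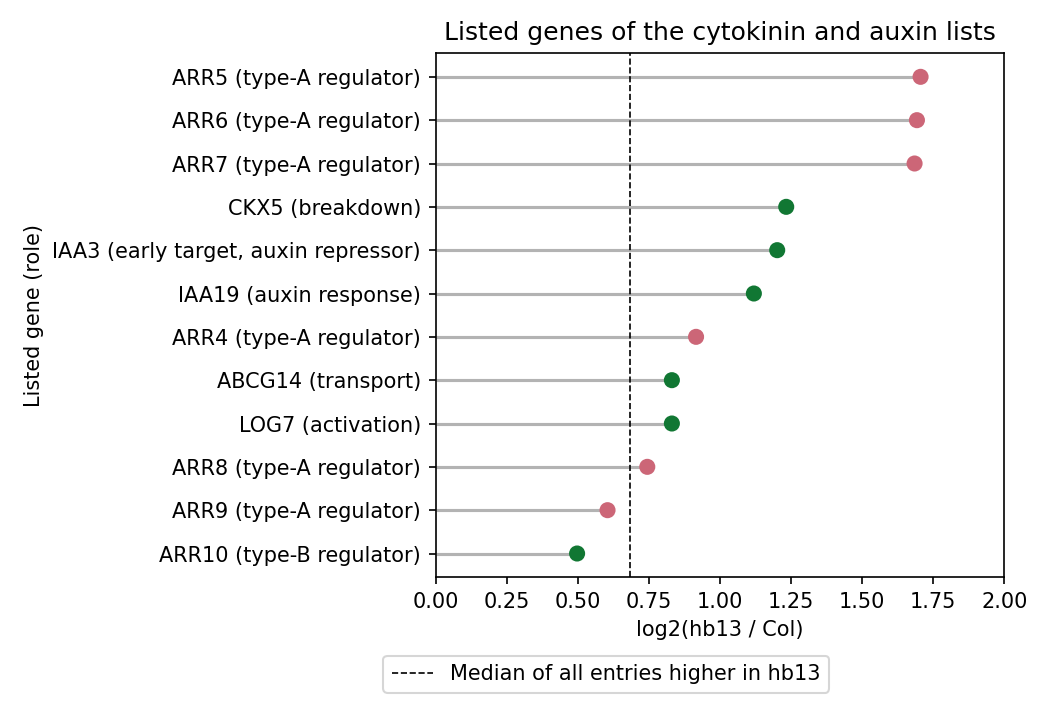
log2(hb13/Col) of the listed type-A regulators (red) and of the listed genes of the other cytokinin and auxin lists (green), with the median of all entries higher in hb13 as a dashed line at 0.68. ARR5, ARR6 and ARR7 have the 3 highest ratios, and ARR9 and ARR10 fall below the dashed line.

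None of 18 marker genes for shoot tissue, meristem, stele, endodermis, epidermis and root cap was listed (0 of 18). The table gives no value for a gene that was not called, so the tissue could not be checked against its markers, and the part of a changed cell composition in these results was not tested.

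The members shared their gene structure. Each of the 10 genes has 5 coding exons in its longest coding transcript in RefSeq TAIR10.1, with coding lengths from 465 bases in ARR17 to 972 bases in ARR3. They lie on chromosomes 1, 2, 3 and 5. Coding-sequence identity over the 45 pairs ran from 44.5% to 79.6%, with a median of 57.1%. The 5 pairs above 70% were ARR5 with ARR6 (79.6%), ARR16 with ARR17 (79.4%), ARR8 with ARR9 (78.4%), ARR7 with ARR15 (73.5%) and ARR3 with ARR4 (73.0%).

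Set beside the table, ARR5 with ARR6 and ARR8 with ARR9 were each listed together and had similar ratios, differing by 0.013 and 0.14 in log2 ratio. ARR16 and ARR17 were both missing from it. ARR7 was listed without ARR15, and ARR4 without ARR3. Members of different pairs could be as close. ARR6 and ARR7, at 64.6% identity, differed by 0.0083 in log2 ratio, ARR5 and ARR7 by 0.021, and ARR4 and ARR8 by 0.17. ARR5, ARR6 and ARR7 differed from ARR8 and ARR9 by 0.94 to 1.1.

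**Figure D4:**
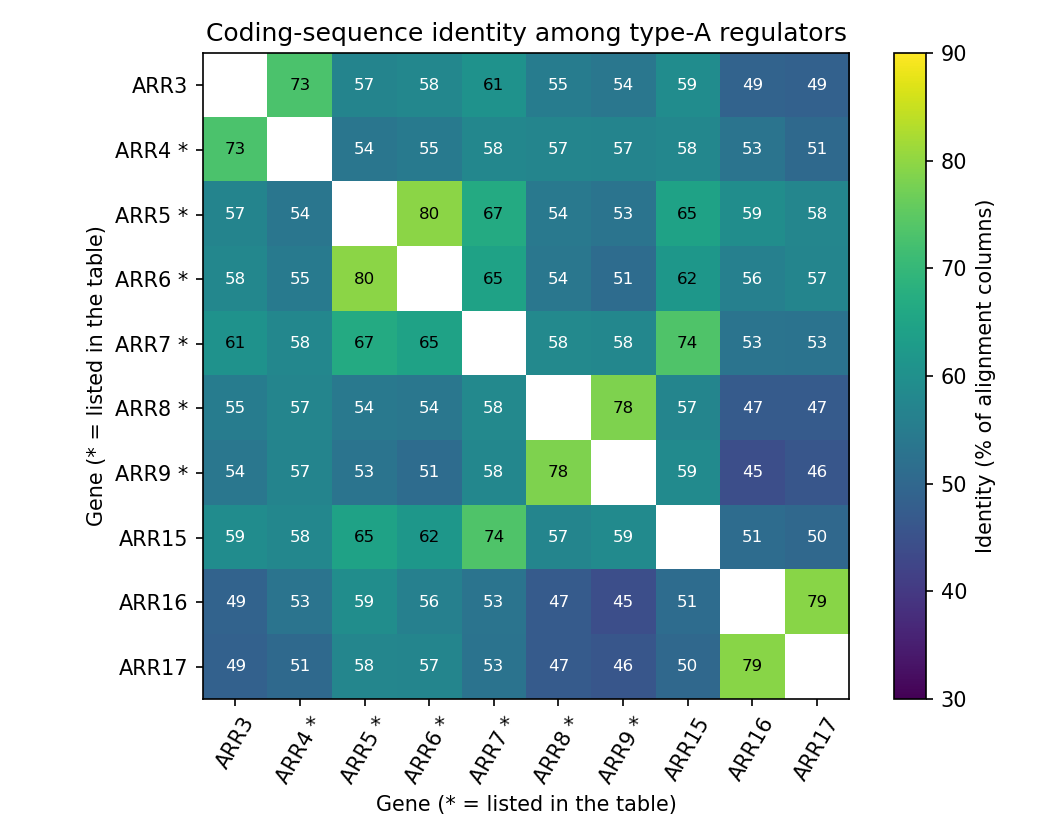
Coding-sequence identity (percent of alignment columns, rounded) for the 45 pairs of type-A regulators, with listed genes marked by an asterisk. The 5 brightest pairs, from 73.0% to 79.6%, are the close relatives named in the text.

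Near-identical copies can share reads, so the closest stretch of each listed pair is shown at 100 bases, the length of the reads. Coding bases are counted from 1 at the start codon, joined over exons, and capitals mark the bases that differ. In ARR5 (bases 296 to 395, minus strand of chromosome 3) and ARR6 (bases 293 to 392, minus strand of chromosome 5) 10 bases differ.
ARR5: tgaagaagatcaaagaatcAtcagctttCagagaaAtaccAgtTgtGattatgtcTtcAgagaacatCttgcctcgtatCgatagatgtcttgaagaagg
ARR6: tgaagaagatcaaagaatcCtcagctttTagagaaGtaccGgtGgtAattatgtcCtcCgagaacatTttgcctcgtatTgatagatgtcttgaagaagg
In ARR8 (bases 23 to 122, plus strand of chromosome 2) and ARR9 (bases 23 to 122, plus strand of chromosome 3) 9 bases differ.
ARR8: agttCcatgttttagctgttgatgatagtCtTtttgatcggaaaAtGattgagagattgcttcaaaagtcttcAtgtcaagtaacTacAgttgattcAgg
ARR9: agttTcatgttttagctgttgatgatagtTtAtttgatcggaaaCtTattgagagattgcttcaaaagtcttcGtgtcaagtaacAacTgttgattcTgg
The fewest differences in any gapless window of this length was 9, over the 34 pairs that had such a window, and the longest unbroken run that any pair shared was 41 bases. None of the exon stretches of 100 bases from the 10 genes, 128 in ARR17 to 1825 in ARR8, occurred elsewhere in the genome (0 in each gene), so a full-length exact read within an exon has 1 origin.

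Overlapping transcripts are another source of shared reads. In RefSeq TAIR10.1, ARR6 overlaps the protein-coding gene AT5G62910, and ARR8 and ARR9 each overlap a long non-coding RNA gene (AT2G09250 and AT3G08825), all on the opposite strand. The libraries keep the strand, but whether counting used it is not given in the sources used here, so the values of these 3 members are uncertain to that extent. None of the 3 overlapping genes was itself listed. Of 23 nearest or overlapping loci of the 10 members, 1 was listed, a share near the 2.49% of all genes. This was ZFP5 (AT1G10480), a zinc-finger regulator of root hair formation that starts 5206 bases from ARR4 on the opposite strand, at 2.15 in Col and 6.29 in hb13 per the authors' deposited table with a log2 ratio of 1.55.

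In the 250-base promoters, AGATT or AGATC occurred on either strand in 10 of 10 members, in 6 of 6 listed and 4 of 4 unlisted ones, and in 73.2% of all 27443 protein-coding promoters. A run of AGATCT counts on both strands. The mean number of matches was 2.33 in the listed members, 2 in the unlisted ones and 1.43 in all promoters. ARR7 had the most among the listed members. In the sequence printed above its matches begin between -116 and -80 relative to the gene start. ARR5 had 2 matches, both AGATC, and ARR6 had 3, all AGATT. ARR15, not listed, had 1, and ARR16, not listed, had 2 of AGATT and 3 of AGATC. The presence of these letters therefore did not separate listed from unlisted members.

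The HD-ZIP motif CAATNATTG, with any base at N, was searched because HB13 is an HD-ZIP factor. The search was not narrowed to sites of class I. The motif was found in 0 of the 10 promoters of 250 bases, where 0.918% of all promoters held it. In windows of 1000 bases, chosen after the shorter windows were seen, it was again in 0 of 10, against 3.44% of all promoters. These counts say only that the letters are not in these windows. The TATA motif TATAAA was in 3 of 10 members at 250 bases (ARR4, ARR6 and ARR17), against 47.3% of all promoters.

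**Figure D5:**
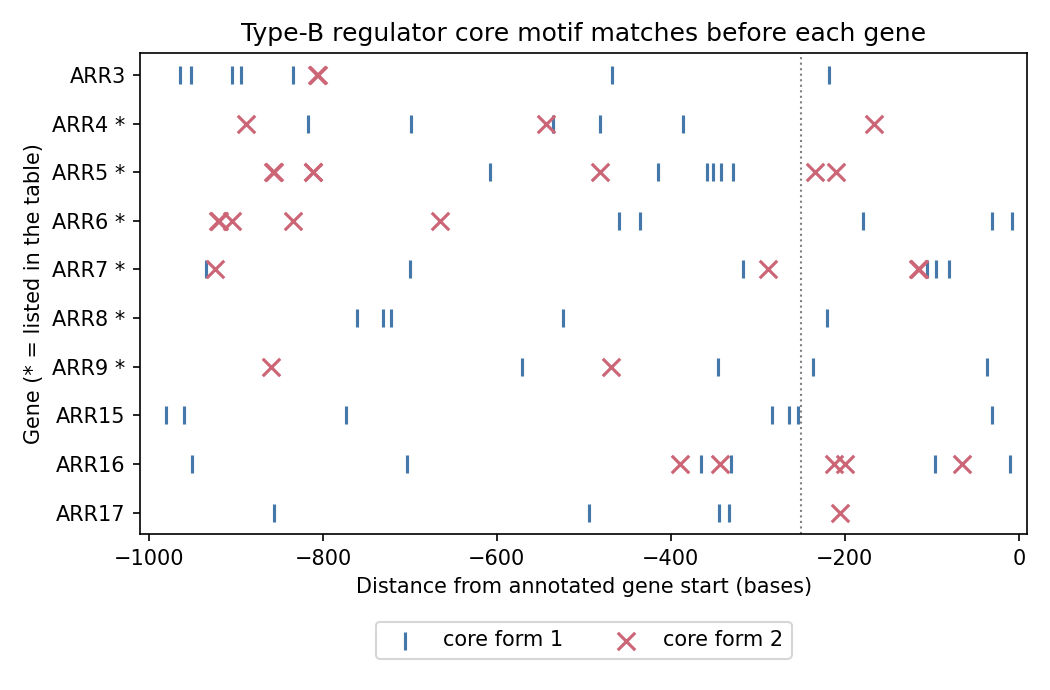
Matches to AGATT (core form 1, bars) and AGATC (core form 2, crosses) on either strand in the 1000 bases before each type-A gene, by distance from the annotated gene start in bases. The dotted line marks 250 bases, and listed (asterisk) and unlisted genes both have matches on either side of it.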

How the data were processed

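RNA sequencing of 3 wild-type and 3 hb13 root libraries was represented by 1 table of the authors' comparison. Per the submitters' processing notes, the tools were TopHat2 2.0.13, Cufflinks 2.1.1 and Cuffdiff with the build TAIR10, with no role or parameters given. The 2 expression columns were treated as a signal that the authors normalized on a scale named in neither header nor labels. The header of the deposited log2 fold change names both genotypes and states no direction. For the members it equalled log2(hb13/Col) recomputed here to within 1.02e-05, so it was read as hb13 over Col. The deposited q-value, from 0.00246 to 0.05, was used as the authors gave it. The adjustment behind it is not given in the sources used here.

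The 10 members, the gene lists and the markers were chosen with earlier results of these data known. Genes named are all members, every listed gene of the lists, and listed nearest neighbours or overlapping genes of members. The planned limma fit needs values per library and was not run. The locus tags of 10 of 10 members were found in RefSeq TAIR10.1. RefSeq gives ARR5, ARR8, ARR16 and ARR17 the symbols RR5, RR3, RR16 and RR17. Gene starts, exons and sequences came from the same assembly. The submitters' build is TAIR10, so the coordinates are RefSeq's and not the table's. Coding sequences were aligned globally, taking for each pair the annotated coding sequences with the highest identity over alignment columns. This replaced the planned protein alignment. Motif counting was tested on simulated sequences with known matches.

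Alternatives were a q-value under 0.01, a log2 ratio of at least 1 in either direction, mean values of at least 1 and 5, pseudocounts of 0.1 and 1, subtraction of the median log2 ratio, and promoter windows of 1000 bases. Python 3.11.15, pandas 2.3.3, NumPy 2.4.6, Biopython 1.88 and matplotlib 3.10.9 were used.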

Additional observations from a re-analysis of the deposited data

How the results depend on the processing

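No paired analysis was possible because single libraries have no values in the deposited file. Leaving out each replicate could not be run for the same reason. Of the 6 listed members, 5 were left when the q-value had to be under 0.01 and 5 when the mean value had to reach 5, in both cases without ARR7, and 6 when it had to reach 1. When the log2 ratio had to be at least 1 in either direction, the members fell to 3 (ARR5, ARR6 and ARR7) and the 5 other pathway genes to 2. The other pathway genes numbered 5 with the q-value under 0.01 and 4 with the mean value at 5 or more. Such thresholds can only remove entries. The median log2 ratio of the 6 members, 1.3, was 1.25 with a pseudocount of 0.1, 0.98 with a pseudocount of 1 and 0.85 after the median of all entries was subtracted. With the pseudocount of 1, ARR7 moved most, from 1.68 to 1.06, as its low values imply. A pseudocount cannot turn a direction. Subtracting the median could have done so for a member under 0.45, and the lowest, ARR9, was at 0.60. In windows of 1000 bases 10 members held AGATT or AGATC, but so did 99.6% of all promoters, so the longer window is no check of this count.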

Other observations

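Promoters of all listed protein-coding genes, the listed members among them, were scanned in the same way, as values with no test. The HD-ZIP motif CAATNATTG lay within 250 bases before the gene start in 7 of 378 protein-coding genes higher in hb13 (1.85%). It lay there in 4 of 306 that were lower (1.31%), against 0.918% of all protein-coding promoters. Within 1000 bases it lay in 22 of the 378 (5.82%) and in 9 of the 306 (2.94%), against 3.44%. TATAAA lay within 250 bases in 56.6% of the higher and 55.2% of the lower genes, against 47.3% of all promoters. AGATT or AGATC lay there in 74.6% and 69.3%, against 73.2%. What lies behind these shares was not tested. ABCG14 and LOG7, the cytokinin exporter and the activating enzyme, held the neighbouring ranks 134 and 135 by log2 ratio. This adjacency was noticed after the values were seen, and nothing is read from it.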
